A study of Mus musculus with 9 samples.

Results

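Glycolysis splits glucose to pyruvate in the cytosol, and lactate dehydrogenase turns pyruvate into lactate when it is not burned in mitochondria. The hypoxia-inducible factor HIF-1, made of an oxygen-regulated alpha subunit (Hif1a) and a stable partner, switches on most of the glycolytic enzymes together with genes for vessel growth, mitophagy and lactate export when oxygen is short, and prolyl hydroxylases (Egln1, Egln3) mark the alpha subunit for destruction when oxygen is present. Dendritic cells raise glycolysis when they are activated, and cells in and around tumors are often short of oxygen. The 35 genes described here are a listed set of glycolytic enzymes, glucose and lactate transporters, HIF regulators and HIF targets. All 35 were found among the 53458 genes of the deposited tables, and all 35 were among the 24133 genes that passed the filter on low counts and were tested.

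The libraries held RNA of mouse conventional type 1 dendritic cells (cDC1), which present captured antigen to cytotoxic T cells, from lymph nodes next to the pancreas. The 3 groups of 3 libraries were Healthy, PanIN (the node drained a pancreas with intraepithelial neoplasia, the precursor lesion) and Tumor (the node drained a pancreatic tumor). KPC, a mouse model of pancreatic cancer, is named in the title of the series; the labels give no strain, age, allele or driver for any group, and do not say which alleles the Healthy mice carried. They do not say whether a library is 1 animal or a pool either, so a p-value here reflects how far these libraries scatter, and that scatter may be technical. A title code is shared by Healthy 1, PanIN 1 and Tumor 1, and what it stands for is not stated in the labels. Each of the other libraries has a title code of its own, so among them stage and code cannot be told apart.

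Depth ran from 32150281 to 68934430 estimated counts per library. The cDC1 markers Xcr1 and Irf8 stood at 249 CPM (counts scaled to a common library total) or more and at 1025 CPM or more in every library, which matches the label. The sum of 10 markers of mature dendritic cells ran from 786 to 8347 CPM in Healthy, 4159 to 9782 in PanIN and 8633 to 16349 in Tumor, lowest in Healthy 2. Healthy 2 also held the highest sum of 9 cDC1 markers (14580 CPM, against 3987 to 10492 elsewhere) and of 10 cell cycle genes (726 CPM, against 140.3 to 569). Healthy 3 was the deepest library and held the lowest cDC1 sum (3987 CPM, close to 4183 in Tumor 1) and the lowest cell cycle sum (140.3 CPM). Its sum of 6 markers of type 2 conventional dendritic cells was the highest (148.4 CPM, followed by 103.2 in Tumor 1). The part of these features in the genes highest in Healthy 3 was not tested. Of the markers of other cells, T and NK cell (442 CPM), erythroid (240.5 CPM) and epithelial (114 CPM) sums were highest in Tumor 1. So were the plasma cell (342.3 CPM), plasmacytoid dendritic cell (246.8 CPM) and fibroblast and endothelial cell (85.7 CPM) sums. The T and NK cell sum was also high in Healthy 1 (283.2 CPM) and PanIN 1 (277.8 CPM), which share the title code of Tumor 1, against 44.3 to 142.1 CPM in the other libraries. Fewer cells of a type and less RNA per cell cannot be told apart in such bulk samples.

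No member passed the adjusted threshold of 0.05 in any comparison (edgeR quasi-likelihood test, Benjamini-Hochberg over 24133 genes). Nearly no gene of any kind did: 0.0% of genes in PanIN against Healthy, 0.0249% in Tumor against Healthy, 0.0124% in Tumor against PanIN and 0.0207% in the test of any difference among stages. The smallest adjusted p of a member was 0.142, for Ndrg1 in Tumor against Healthy. In counts simulated for that comparison the test found 7.5% of genes changed 2-fold, 77.6% of those changed 4-fold and 87.9% of those changed 8-fold. The changed genes were drawn at random from genes above a floor of abundance. These rates are averages over such genes and do not cover scarce members such as Adm and Ankrd37. A doubling would usually go undetected at this spread.

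At an unadjusted p under 0.05, 5 members differed between PanIN and Healthy: Ndrg1 was higher (background 4.82% of genes) and Aldoc, Ldhb, Slc2a3 and Bnip3 were lower (background 5.65%). In Tumor against Healthy there were 8: Ndrg1, Gapdh and Slc16a3 higher (background 6.82%) and Hk1, Pfkm, Aldoc, Ldhb and Slc2a3 lower (background 11.0%). In Tumor against PanIN Ndrg1 and Gapdh were higher (background 2.02%) and no member was lower (background 2.52%). On log2(TPM + 1) these splits turned over: 3 members were higher and 0 lower in PanIN against Healthy (11.0% and 1.38% of all genes), and 0 were higher and 4 lower in Tumor against PanIN (0.791% and 7.48% of all genes). Over all 3 stages 6 members reached that level, Ndrg1, Aldoc, Pfkm, Ldhb, Slc2a3 and Hk1, against 13.4% of all genes. The median log2 fold change of the 35 members was -0.10 in PanIN against Healthy, -0.12 in Tumor against Healthy and 0.06 in Tumor against PanIN, beside -0.10, -0.11 and -0.05 for all genes tested. The members' medians lay within 0.11 of those of all genes, and the differences below are of single genes within the set.

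**Figure D1:**
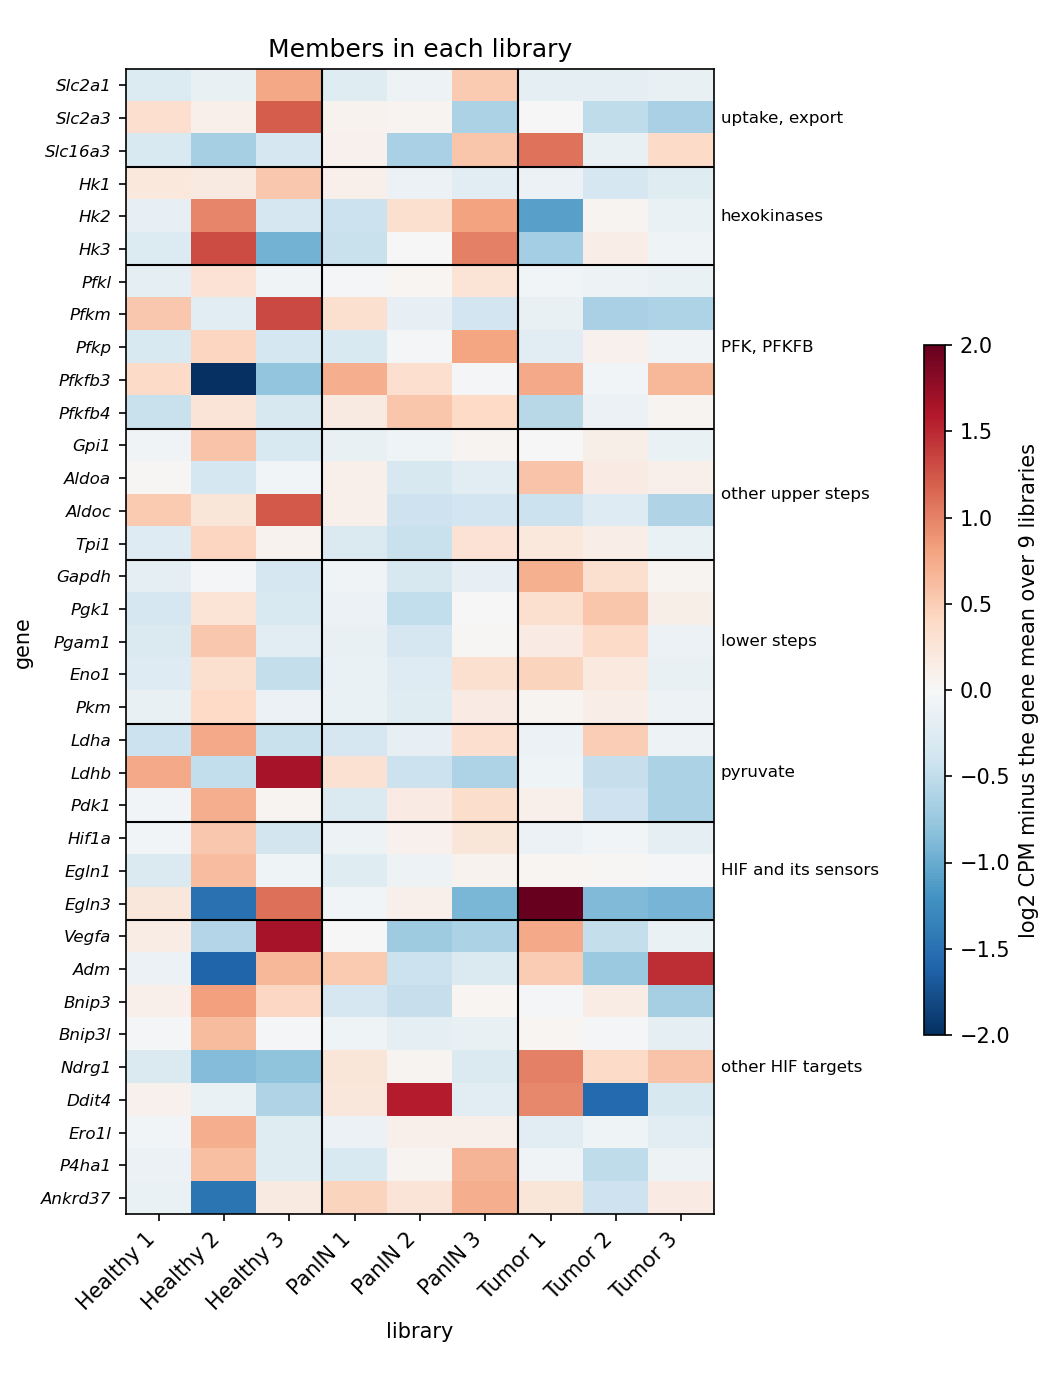
Each cell is the log2 CPM of a member in a library minus that gene's mean over the 9 libraries, with genes ordered by role and stages separated by vertical lines. The 14 members highest in Healthy 2 include Hk2, Hk3, Ldha and Pkm, while Ndrg1 turns from blue in Healthy to red in Tumor and Aldoc, Pfkm, Ldhb and Slc2a3 are reddest in Healthy 3.

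Ndrg1, a stress-response gene and well-known HIF target (chr15:66929318-66969640, minus strand, GRCm38), was the only member whose libraries did not overlap in any of the 3 comparisons. It stood at 85.0, 57.0 and 59.4 CPM in Healthy 1 to 3, 123, 108 and 85.3 CPM in PanIN 1 to 3, and 209.9, 136 and 155 CPM in Tumor 1 to 3. Every PanIN library lay above every Healthy library, by a narrow margin between PanIN 3 and Healthy 1, and every Tumor library lay above every PanIN library. The log2 fold change was 0.65 ± 0.25 (SE) in PanIN against Healthy (adjusted p = 0.457), 1.31 ± 0.26 in Tumor against Healthy (adjusted p = 0.142) and 0.66 ± 0.25 in Tumor against PanIN (adjusted p = 1.0), by edgeR. Within the 3 libraries of the shared title code the Tumor and Healthy libraries differed by 1.30 in log2 CPM, and among the other 6 libraries by 1.32. Tumor 1, the highest library for Ndrg1, also had the highest sum of mature dendritic cell markers, and Healthy 2, the lowest, had the lowest sum; the part of these cells in the Ndrg1 level was not tested.

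The TPM (abundance corrected for transcript length) summed over the transcripts of Ndrg1 did not show the same order: 32.9, 24.8 and 21.3 TPM in Healthy, 34.1, 62.8 and 38.7 TPM in PanIN, and 35, 23.3 and 45.7 in Tumor. The main transcript, a coding one, held 92.3% to 99.1% of the gene's counts in every library but 36.0% to 98.3% of its TPM. A second coding transcript, Ndrg1-207, held at most 182.4 counts in a library and yet up to 49.6% of the gene's TPM. The main transcript alone stood at 15.6, 8.93 and 10.1 TPM in Healthy, 24.9, 23.4 and 19.1 TPM in PanIN and 34.0, 22.9 and 31.3 TPM in Tumor. On that transcript both later stages lay above Healthy, and PanIN and Tumor overlapped.

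**Figure D2:**
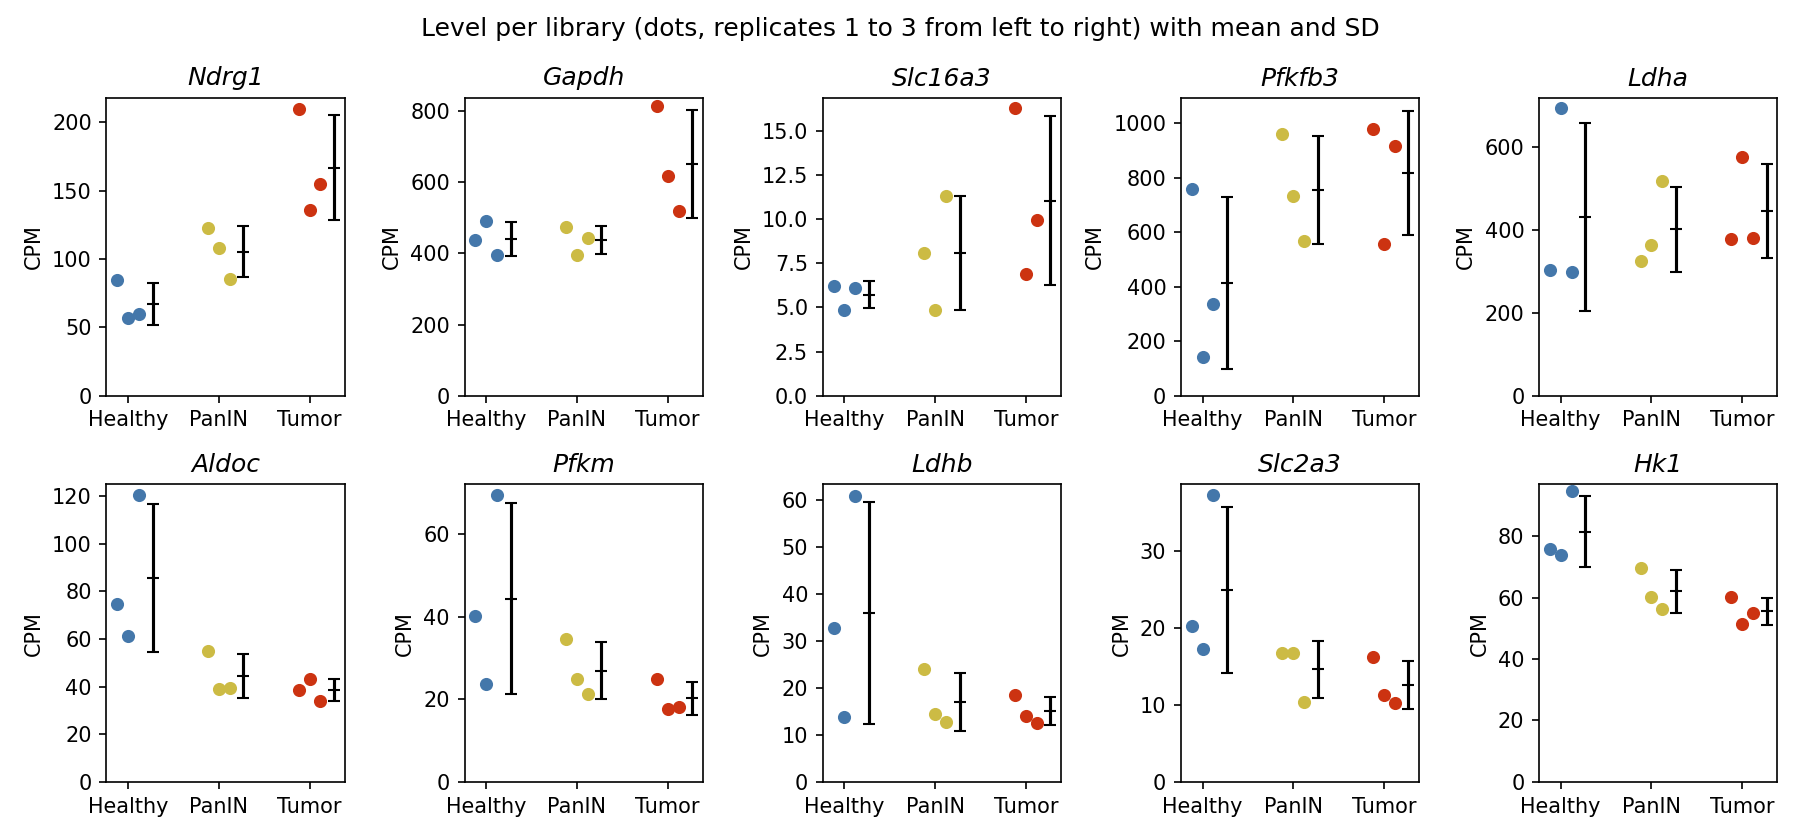
CPM of 10 members in each library, with dots for replicates 1 to 3 from left to right in each stage and the mean and SD beside them. Ndrg1, Gapdh and Slc16a3 separate Tumor from Healthy upward and Aldoc, Slc2a3 and Hk1 downward, while Pfkfb3, Ldha, Pfkm and Ldhb overlap between stages.

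Of the transporters, Slc2a3 (the high-affinity glucose transporter GLUT3) and Slc16a3 (the lactate exporter MCT4) stood apart in opposite directions. Slc2a3 was at 20.3, 17.3 and 37.3 CPM in Healthy, 16.8, 16.7 and 10.4 CPM in PanIN, and 16.2, 11.3 and 10.3 CPM in Tumor. Each PanIN and Tumor library lay below the lowest Healthy library, Healthy 2, by a narrow margin, and Healthy 3 was well above the rest. The log2 fold change was -0.77 ± 0.34 (SE) in PanIN and -0.99 ± 0.34 in Tumor against Healthy (edgeR adjusted p = 0.465 and 0.177), and without Healthy 3 these became -0.34 and -0.57. Slc2a1 (GLUT1), the transporter most often tied to HIF, was at 19.3, 21.0 and 39.7 CPM in Healthy, 19.6, 21.7 and 33.6 CPM in PanIN and 20.4, 20.5 and 20.9 CPM in Tumor, with overlapping groups and a log2 fold change of -0.38 ± 0.31 in Tumor against Healthy that was 0.04 without Healthy 3. Slc16a3 was at 6.22, 4.83 and 6.08 CPM in Healthy, 8.10, 4.88 and 11.3 CPM in PanIN, and 16.3, 6.91 and 9.96 CPM in Tumor. All 3 Tumor libraries exceeded the Healthy ones, with a log2 fold change of 0.95 ± 0.40 (edgeR adjusted p = 0.245) that was 0.56 without Tumor 1.

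Hexokinases trap glucose in the cell, and their 3 genes did not move alike. Hk1, the housekeeping form, was at 75.7, 73.9 and 94.7 CPM in Healthy, 69.7, 60.2 and 56.2 CPM in PanIN and 60.2, 51.5 and 55.0 CPM in Tumor. Both later stages lay below Healthy in every library (log2 fold change in Tumor against Healthy -0.55 ± 0.20, edgeR adjusted p = 0.189). Hk2, the inducible HIF target, was at 38.0, 83.7 and 33.8 CPM in Healthy, 31.5, 53.1 and 74.7 CPM in PanIN and 20.1, 44.3 and 39.0 CPM in Tumor. Hk3, a form of myeloid cells, was at 55.5, 165 and 34.7 CPM in Healthy, 49.1, 67.6 and 134 CPM in PanIN and 41.9, 73.3 and 63.3 in Tumor. Hk2 and Hk3 were highest in Healthy 2 and next highest in PanIN 3, the libraries with the highest cDC1 marker sums, and their stages overlapped. Healthy 2 and PanIN 3 also held the highest monocyte and macrophage marker sums (310 and 212.5 CPM, against 89.9 to 192.3 elsewhere). The part of either cell type in the Hk2 and Hk3 levels was not tested. For Hk2 the log2 fold changes were 0.04 ± 0.41 in PanIN and -0.59 ± 0.41 in Tumor against Healthy, the latter -0.06 without Healthy 2.

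Phosphofructokinase commits sugar to glycolysis, and its muscle-type gene Pfkm was at 40.1, 23.6 and 69.4 CPM in Healthy, 34.7, 24.8 and 21.3 CPM in PanIN and 24.9, 17.7 and 18.1 CPM in Tumor. Healthy 2 and Tumor 1 overlapped. The log2 fold change in Tumor against Healthy was -1.14 ± 0.36 (edgeR adjusted p = 0.168), and -0.66 without Healthy 3. The liver-type Pfkl (62.3 to 87.0 CPM) and platelet-type Pfkp (133.5 to 295 CPM) differed from Healthy by 0.26 or less on the log2 scale at both stages.

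Pfkfb3 makes the strongest activator of phosphofructokinase, and it was the most variable of the abundant members. It stood at 759.7, 143 and 337 CPM in Healthy, 962, 734 and 568 CPM in PanIN and 980.2, 559 and 917 CPM in Tumor. The Healthy libraries alone spanned 143 to 759.7 CPM, and the log2 fold changes were 0.87 ± 0.49 in PanIN and 0.99 ± 0.49 in Tumor (edgeR adjusted p = 0.564 and 0.32). Among the 3 libraries of the shared title code they were 0.34 and 0.37, and among the other 6 they were 1.56 and 1.71. Healthy 2, the library low in Pfkfb3, was also the lowest in mature dendritic cell markers; the part of that in the result was not tested. Pfkfb4, a related enzyme, lay between 4.74 and 10.2 CPM, and its 3 Tumor libraries lay below the 3 PanIN libraries (log2 fold change -0.57 ± 0.33).

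Aldolase cuts the sugar phosphate into 3-carbon pieces, and Aldoc (chr11:78322968-78327781, plus strand), its minor form here, had the smallest p among the members that were lower. Aldoc was at 74.5, 61.3 and 120.6 CPM in Healthy, 55.1, 38.8 and 39.4 CPM in PanIN and 38.5, 43.0 and 33.9 CPM in Tumor. Both later stages lay below all 3 Healthy libraries and overlapped each other. The log2 fold change was -0.94 ± 0.27 (SE) in PanIN and -1.15 ± 0.27 in Tumor against Healthy (edgeR adjusted p = 0.44 and 0.168). Without Healthy 3 these were -0.60 and -0.81. Aldoa, the main form, went the other way in Tumor, at 740.0, 561 and 534 CPM against 505, 393 and 478 CPM in Healthy and 533, 400.0 and 426.5 CPM in PanIN, with a log2 fold change of 0.42 ± 0.25 (edgeR adjusted p = 0.418). The share of Aldoc in the TPM of both genes was 17.6% ± 2.79 (SD, n = 3) for Healthy, 13.0% ± 2.38 for PanIN and 9.10% ± 2.41 for Tumor. Over the 3 stages this share had p = 0.0179 in an exact permutation test, and 0.256 after adjustment over 44 share tests. Gpi1 (463 to 845.5 CPM) and Tpi1 (97.4 to 179 CPM), both highest in Healthy 2, differed by 0.23 or less between any stage and Healthy.

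**Figure D3:**
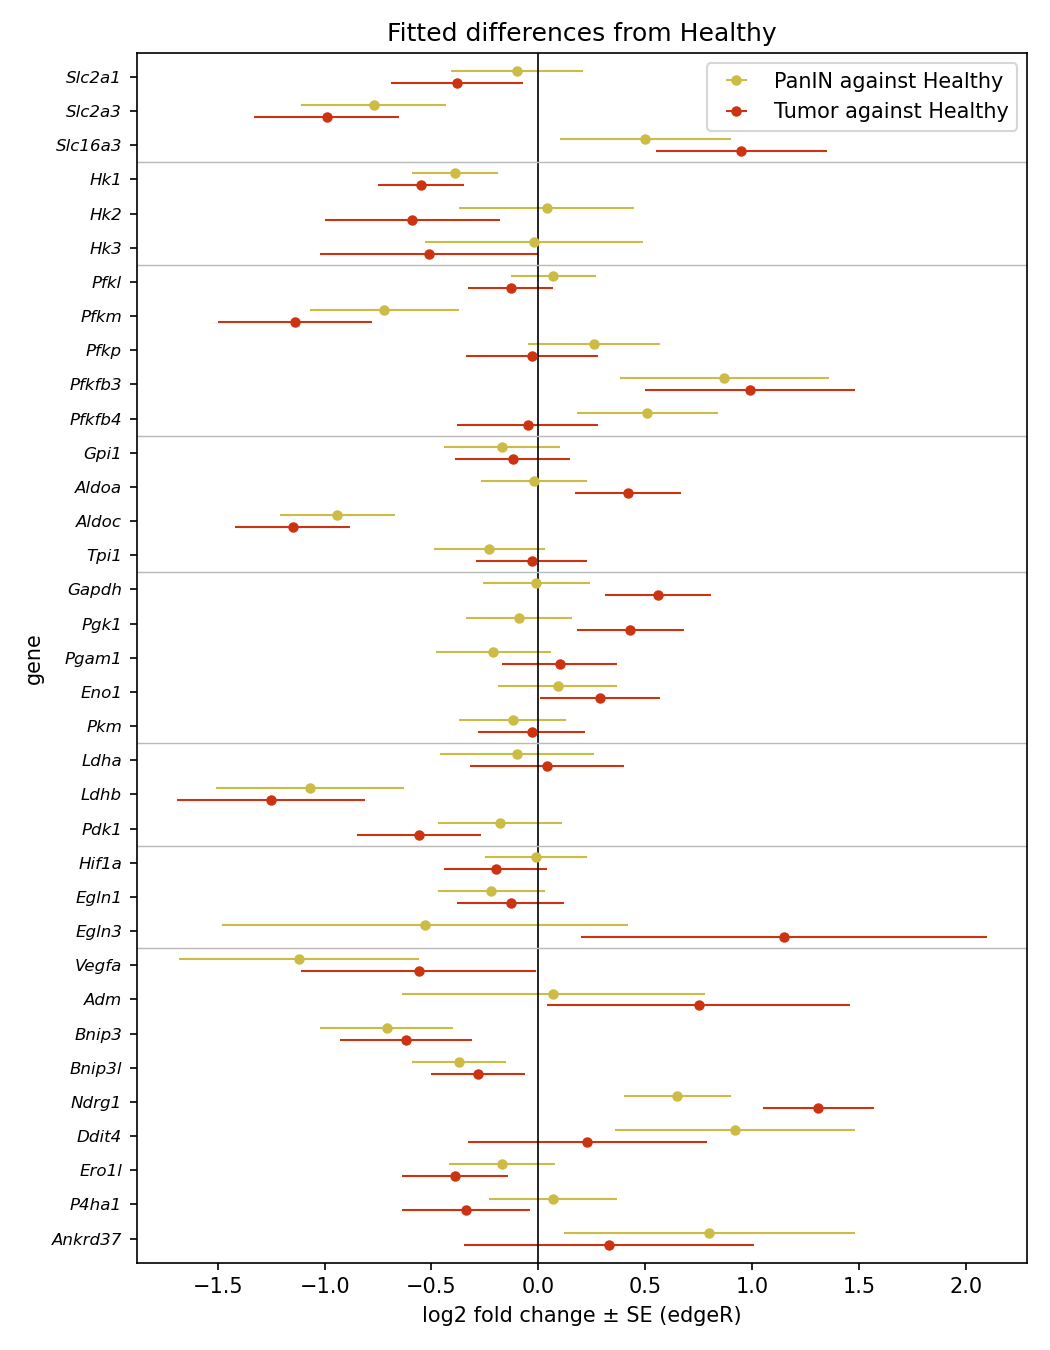
Log2 fold change with its standard error for each member, PanIN and Tumor each against the same 3 Healthy libraries, ordered by role. Ndrg1 lies farthest to the right of 0 relative to its error and Aldoc farthest to the left.

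Of the enzymes of the lower steps, Gapdh, which works at the step that makes NADH, stood highest in Tumor. Gapdh was at 436, 490.4 and 394 CPM in Healthy, 475, 397 and 444 CPM in PanIN and 816, 619 and 518 CPM in Tumor. All 3 Tumor libraries lay above the other 6 (log2 fold change 0.56 ± 0.25 against Healthy and 0.57 ± 0.25 against PanIN, edgeR adjusted p = 0.264 and 1.0), and both were 0.37 without Tumor 1, the library with the highest mature dendritic cell marker sum. Pgk1, which makes the first ATP of the pathway, was at 195, 298 and 200.5 CPM in Healthy, 229, 176 and 245.5 CPM in PanIN and 307, 362 and 267 CPM in Tumor (log2 fold change 0.43 ± 0.25 against Healthy and 0.53 ± 0.25 against PanIN). Tumor lay above PanIN in every library and overlapped Healthy 2, but Tumor and PanIN overlapped once Pgk1 was summed with its copies (0.26 ± 0.26). Pgam1 was at 151, 267 and 159 CPM in Healthy, 166, 146 and 187 CPM in PanIN and 207, 241 and 169 CPM in Tumor, and Eno1 lay between 159 and 305 CPM; both overlapped between stages.

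Processed pseudogenes of these enzymes carry almost the same sequence, so a quantifier must divide reads between them by a model. The pseudogene Gm12671 (chr4:91851668-91852669) is 1002 bases long and lies whole inside 3 coding transcripts of Gapdh; with 40 other copies it took 58.9% to 63.1% of the counts of Gapdh and its copies in each library. The reads left on Gapdh sat largely on a transcript annotated as a retained intron, which held 57.5% to 81.5% of the gene's counts, while 2 of the coding transcripts each held 2.12% or less. Summed with its copies, Gapdh stood at 1142, 1326 and 1038 CPM in Healthy, 1288, 1020 and 1164 CPM in PanIN and 1985, 1619 and 1373 CPM in Tumor. Tumor again lay above the other 6 libraries, with a log2 fold change of 0.51 ± 0.27 against Healthy (edgeR adjusted p = 0.349).

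For Pgk1 and Pgam1 the share of reads on copies was lowest in Tumor, with no test run on it. The share of Pgk1 counts on its 2 copies was 28.7%, 31.4% and 20.2% for the Healthy libraries, 11.2%, 28.9% and 20.7% for PanIN, and 0.0%, 4.26% and 8.08% for Tumor. The Tumor libraries lay below all others, and Pgk1 summed with its copies differed from Healthy by 0.02 ± 0.26 on the log2 scale where Pgk1 alone differed by 0.43. Pgam1-ps2 (chr7:27469771-27470535), whose 765 bases lie whole inside a Pgam1 transcript, stood at 13.7, 30.4 and 21.4 CPM in Healthy, 4.94, 15 and 19.7 CPM in PanIN, and was listed at 0.0 CPM in all 3 Tumor libraries. This pseudogene passed the threshold in Tumor against Healthy (edgeR adjusted p = 0.00386) and had the smallest p of all genes tested there. Pgam1 itself had a log2 fold change of 0.10 ± 0.27 in that comparison, and -0.06 ± 0.27 when summed with Pgam1-ps2 (edgeR adjusted p = 0.948).

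**Figure D4:**
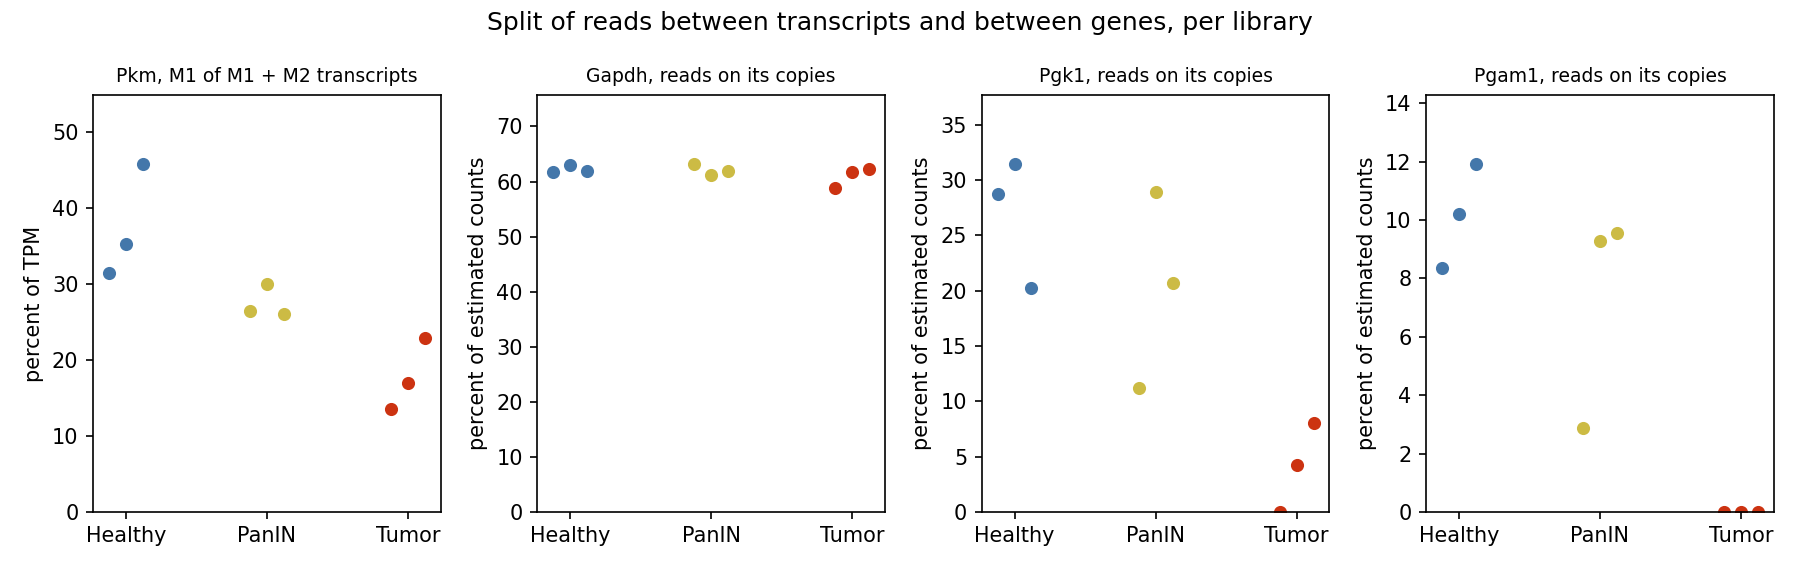
Per library, the share of the M1 transcript in the TPM of the M1 and M2 transcripts of Pkm, and the share of counts on copies for Gapdh, Pgk1 and Pgam1. The M1 share steps down from Healthy to Tumor, the Gapdh split stays between 58.9% and 63.1%, and the Pgk1 and Pgam1 copies are lowest in Tumor, at 0.0% for Pgam1.

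Pyruvate kinase closes the pathway, and its gene Pkm makes an M1 or an M2 form by keeping 1 of 2 alternative exons. Both exons are 167 bases long and 61.7% identical; they are shown because the M1 share described next rests in part on them. The capitals mark the 64 positions at which they differ, and the exons lie at chr9:59675029-59675195 (M1) and chr9:59675568-59675734 (M2), plus strand, GRCm38, read from GENCODE M21 transcripts.
M1 exon: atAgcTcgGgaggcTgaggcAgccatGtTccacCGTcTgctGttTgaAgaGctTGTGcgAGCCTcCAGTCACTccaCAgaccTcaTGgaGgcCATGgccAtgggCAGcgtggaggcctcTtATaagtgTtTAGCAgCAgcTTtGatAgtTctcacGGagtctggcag
M2 exon: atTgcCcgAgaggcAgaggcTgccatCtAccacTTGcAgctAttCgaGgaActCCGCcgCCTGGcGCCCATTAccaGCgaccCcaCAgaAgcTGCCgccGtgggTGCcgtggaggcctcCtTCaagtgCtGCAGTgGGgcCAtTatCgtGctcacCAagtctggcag

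The level of the whole gene was even: Pkm stood at 498, 731 and 509 CPM in Healthy, 506, 470.4 and 620.3 CPM in PanIN and 579, 606 and 517 in Tumor, with log2 fold changes of -0.12 ± 0.25 and -0.03 ± 0.25 against Healthy. The M1 transcript was at 36.5, 51.2 and 51.2 TPM in Healthy, 34.3, 38.3 and 45 TPM in PanIN and 15.7, 21.1 and 30.4 TPM in Tumor. The M2 transcript was at 79.5, 93.6 and 60.7 TPM in Healthy, 95.7, 89.3 and 128 TPM in PanIN and 99.9, 103 and 102 TPM in Tumor. The M1 share of both was therefore 31.4%, 35.3% and 45.7% for the Healthy libraries, 26.4%, 30.0% and 26.0% for PanIN, and 13.6%, 17.0% and 22.9% for Tumor. No PanIN library reached the lowest Healthy share, and no Tumor library reached the lowest PanIN share. Over all its transcripts Pkm stood at 145.0, 216.7 and 153.3 TPM in Healthy and 117.2, 130.6 and 136.9 TPM in Tumor. In PanIN it stood at 133.4, 166.4 and 233.3 TPM. Transcripts other than these M1 and M2 ones took a larger part of the TPM in every Healthy library than in any Tumor library. That part was also small in PanIN 1, and its bearing on the M1 share was not tested.

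Over 3 libraries each (mean ± SD), the M1 share was 37.5% ± 7.40 for Healthy, 27.5% ± 2.21 for PanIN and 17.8% ± 4.72 for Tumor. The exact permutation test over the 3 stages gave p = 0.00357, the smallest that all assignments of 9 libraries to 3 groups can give, and 0.157 after adjustment over the 44 share tests. With no other share near that smallest p, 0.157 was the lowest adjusted p this share could reach. The adjusted threshold could therefore not be passed, and missing it says nothing about the share. In exact permutation tests of 2 stages each p was 0.1, which is the smallest that 3 against 3 can give. The Tumor minus Healthy difference of -19.7 percentage points was -17.8 within the shared title code and -20.6 among the other 6 libraries. The M2 and M1 transcripts also differ at their ends, with first exons of 282 and 77 bases and last exons of 648 and 462 bases, so reads at the ends as well as in the alternative exons set this share, and their part was not tested.

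Lactate dehydrogenase turns pyruvate to lactate through its A subunit (Ldha), while the B subunit (Ldhb) favours the way back. Ldhb was at 32.8, 13.9 and 60.8 CPM in Healthy, 24.1, 14.4 and 12.7 CPM in PanIN and 18.4, 14.1 and 12.6 CPM in Tumor. Healthy 2 was as low as the later stages, so the groups overlapped. The log2 fold change was -1.07 ± 0.44 in PanIN and -1.25 ± 0.44 in Tumor against Healthy (edgeR adjusted p = 0.458 and 0.182), and -0.45 and -0.65 without Healthy 3. Ldha was at 302, 693 and 298 CPM in Healthy, 324, 362 and 517 CPM in PanIN and 377, 575 and 381 CPM in Tumor, with log2 fold changes of -0.10 ± 0.36 and 0.04 ± 0.36. The A subunit was highest in Healthy 2, where the B subunit was near its lowest. Pdk1, the kinase by which HIF keeps pyruvate out of mitochondria, was at 27.6, 47.5 and 29.8 CPM in Healthy, 23.5, 32.4 and 36.8 CPM in PanIN and 31, 21.5 and 18.5 CPM in Tumor, with overlapping stages and a log2 fold change of -0.56 ± 0.29 in Tumor.

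Hif1a, the oxygen-regulated subunit, differed little between stages. It was at 77.7, 116 and 62.3 CPM in Healthy, 75.2, 85.3 and 94.5 CPM in PanIN and 73.9, 77.6 and 71.2 CPM in Tumor, with log2 fold changes of -0.01 ± 0.24 and -0.20 ± 0.24. HIF activity is set mainly at the protein level, which these data did not measure. Egln1, the main oxygen sensor, lay between 32.5 and 60.6 CPM and overlapped. Egln3, a sensor that HIF itself induces, was at 1.54, 0.472 and 2.84 CPM in Healthy, 1.27, 1.42 and 0.702 CPM in PanIN and 9.44, 0.713 and 0.696 CPM in Tumor. Only Tumor 1 was high, and the log2 fold change of Egln3 in Tumor against Healthy was 1.15 ± 0.95 with it and -1.20 without it. That library also held the highest T and NK cell, erythroid and epithelial marker sums, given above, and their part in the Egln3 level was not tested.

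The other HIF targets did not share a direction. Vegfa, the vessel growth factor, was at 5.43, 3.25 and 15.3 CPM in Healthy, 4.89, 2.99 and 3.15 CPM in PanIN and 8.32, 3.54 and 4.45 CPM in Tumor. Healthy 3 was highest and the stages overlapped, with log2 fold changes of -1.12 ± 0.56 and -0.56 ± 0.55. Without Healthy 3 the values for Vegfa were -0.23 in PanIN and 0.32 in Tumor, so the direction in Tumor rested on that library. Bnip3, a mitophagy receptor, was at 14.2, 23.2 and 17.5 CPM in Healthy, 10.4, 9.58 and 13.6 CPM in PanIN and 12.8, 14.6 and 8.32 CPM in Tumor. Every PanIN library lay below Healthy (log2 fold change -0.71 ± 0.31, edgeR adjusted p = 0.459), and Tumor overlapped Healthy 1 (-0.62 ± 0.31). Its relative Bnip3l, also a mitophagy receptor, lay between 71.1 and 126 CPM and had log2 fold changes of -0.37 ± 0.22 and -0.28 ± 0.22.

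Ddit4, an inhibitor of mTORC1 induced by low oxygen and by glucocorticoids, was at 26.6, 22.8 and 16.5 CPM in Healthy, 29.2, 74.4 and 21.5 CPM in PanIN and 48.6, 8.48 and 20 CPM in Tumor. Both its highest and its lowest library belonged to the later stages, and the stages overlapped, with log2 fold changes of 0.92 ± 0.56 in PanIN and 0.23 ± 0.56 in Tumor. Without PanIN 2 the PanIN value for Ddit4 was 0.21, and without Tumor 1 the Tumor value was -0.62. PanIN 2 also held the highest B cell marker sum (347 CPM, against 54.6 to 102.5 elsewhere) and the highest neutrophil sum (51.5 CPM, against 2.86 to 36.5 elsewhere), whose part in the Ddit4 level was not tested. Adm, a vasodilator peptide (0.446 to 3.78 CPM), and Ankrd37 (0.289 to 1.31 CPM) were scarce; Ankrd37 was above Healthy in all 3 PanIN libraries (log2 fold change 0.80 ± 0.68). Ero1l, which forms disulfide bonds in the endoplasmic reticulum, and P4ha1, a collagen prolyl hydroxylase, lay between 36.2 and 70.8 CPM and between 24.8 and 56.5 CPM, with log2 fold changes from -0.39 to 0.07 against Healthy.

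Some members had libraries that did not overlap between stages on the CPM scale. In PanIN against Healthy 2 members lay above (Ndrg1 and Ankrd37; background 7.40%) and 5 below (Aldoc, Slc2a3, Hk1, Bnip3 and Bnip3l; background 4.81%). In Tumor against Healthy 4 lay above (Ndrg1, Gapdh, Aldoa and Slc16a3; background 9.02%) and 3 below (Aldoc, Slc2a3 and Hk1; background 9.06%). In Tumor against PanIN 4 lay above (Ndrg1, Gapdh, Aldoa and Pgk1, the last of which overlapped when summed with its copies; background 8.33%) and 3 below (Pfkl, Pfkfb4 and Ankrd37; background 7.26%). The comparisons with Healthy share the same 3 Healthy libraries. Many of these separations were lost on TPM. There Aldoc, Slc2a3, Hk1, Bnip3 and Bnip3l overlapped between PanIN and Healthy. Ndrg1, Aldoa, Slc16a3 and Slc2a3 overlapped between Tumor and Healthy, and Ndrg1, Gapdh, Aldoa and Pgk1 between Tumor and PanIN. The others named stayed apart on TPM, and members apart on TPM alone are not listed.

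The highest library was not the same for all members. Of the 35 members, 14 were highest in Healthy 2, among them Hk2, Hk3, Gpi1, Pfkl, Tpi1, Pgam1, Pkm and Ldha, against 19.6% of all genes tested. The 7 highest in Healthy 3 were Hk1, Pfkm, Aldoc, Ldhb, Slc2a1, Slc2a3 and Vegfa, against 31% of all genes, and 7 were highest in Tumor 1, against 12.8% of all genes. Healthy 1 and PanIN 1 were highest for none, and for only 4.28% and 3.41% of all genes. Within the shared title code 24 of 35 members were higher in Tumor than in Healthy, with a median log2 CPM difference of 0.16, beside 48.9% of all genes with a median of -0.01. Among the other 6 libraries 10 of 35 were, with a median of -0.23, beside 46.3% of all genes with a median of -0.06.

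Other ways of testing called some members in Tumor against Healthy. DESeq2 called Ndrg1 higher and Aldoc and Pfkm lower (6.66% of all genes called), with adjusted p of 0.000748, 0.0100 and 0.0378. The edgeR test with no filter on low counts called these and Ldhb (2.82% of all genes), limma-voom with sample weights called these, Ldhb and Pgk1 (8.23%), and edgeR without Healthy 2 called Ndrg1, Aldoc, Pfkm, Ldhb and Slc2a3 (8.51%). In PanIN against Healthy limma-voom with sample weights called Aldoc, Ldhb and Pfkm lower and Pfkfb4 higher (14.1% of all genes). Voom gave Healthy 2 a weight of 0.172 and Healthy 3 a weight of 0.269, against 0.793 to 4.32 for the other 7 libraries.

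Shares within other families varied with the scale or the library. Of hexokinase TPM, Hk2 took 25.6% ± 2.68 (SD, n = 3) for Healthy, 26.0% ± 2.77 for PanIN and 38.4% ± 4.95 for Tumor, but 23.0%, 26.2% and 22.5% of the counts. Ldhb took 19.2%, 2.39% and 27% of the TPM of Ldha and Ldhb in the Healthy libraries and 4.09% to 11.9% in the later stages. Slc2a3 took 54.5%, 66.0% and 75.2% of the TPM of both glucose transporters for Healthy, 45.9%, 49.6% and 17.3% for PanIN and 57.1%, 35% and 29.7% for Tumor. None of the 44 share tests (exact permutation, Benjamini-Hochberg) passed, and their smallest adjusted p was that of the M1 share. Those of 2 stages could not pass, because their smallest possible p in the exact permutation test is 0.1. Over 3 stages the smallest possible p in that test is 0.00357, which adjusts to 0.157 for a share that reaches it alone. No single share could therefore pass by itself.

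The neighbouring lists of the pathway gave no call either (edgeR, adjusted over all genes), and the shares of all genes given above for each comparison are the background of their counts. These were, for Tumor against Healthy, 6.82% higher and 11.0% lower, for PanIN against Healthy 4.82% and 5.65%, and for Tumor against PanIN 2.02% and 2.52%. Of 28 tested genes for other glycolytic isoenzymes and sugar or pyruvate handling, 4 were higher and 5 lower in Tumor against Healthy at an unadjusted p under 0.05, 2 and 1 in PanIN against Healthy, and 1 and 0 in Tumor against PanIN. Pfkfb1, a relative of Pfkfb3, was at 2.91, 1.29 and 1.79 CPM in Healthy and 4.74, 7.10 and 7.79 CPM in Tumor (log2 fold change 1.72 ± 0.43, adjusted p = 0.168). Pdk2, a relative of Pdk1, was at 14.0, 13.6 and 26.6 CPM in Healthy and 8.55, 9.64 and 7.46 CPM in Tumor (-1.08 ± 0.32, adjusted p = 0.168, and -0.68 without Healthy 3). Pdk4, the form linked to fat burning, was scarce, at 2.76, 0.997 and 1.79 CPM in Healthy and 0.339, 0.641 and 0.111 CPM in Tumor. Its log2 fold change was -2.33 ± 0.75 (edgeR adjusted p = 0.168). Mpc1, a subunit of the mitochondrial pyruvate carrier, was at 41.7, 35.1 and 37.1 CPM in PanIN and 72.3, 65.5 and 49.7 CPM in Tumor (0.72 ± 0.23, adjusted p = 1.0).

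Of 8 pentose phosphate genes, only Pgls reached an unadjusted p under 0.05, higher in Tumor than in PanIN (0.57 ± 0.24). Of 13 genes of the HIF machinery, Eloc and Elob, partners in the complex that degrades the alpha subunit, were higher in Tumor against Healthy, with Eloc at 55.0, 52.4 and 45 CPM in Healthy and 103, 88.8 and 76.8 CPM in Tumor (0.82 ± 0.21, adjusted p = 0.168). Epas1, the HIF-2 alpha subunit, was at 17.1, 10.2 and 42.3 CPM in Healthy and 11.9, 7.98 and 7.29 CPM in Tumor (-1.36 ± 0.46). Arnt2 was at 39.4, 12.9 and 67.9 CPM in Healthy and 17.4, 17.9 and 11.2 CPM in Tumor (-1.37 ± 0.52), with overlapping groups. Both were highest in Healthy 3, and without it the log2 fold change was -0.59 for Epas1 and -0.77 for Arnt2. In that list 2 genes were higher and 2 lower in Tumor against Healthy, 1 was lower in PanIN against Healthy, and 2 were higher and 1 lower in Tumor against PanIN. Of 32 tested other HIF targets, 3 were higher and 4 lower in Tumor against Healthy and 3 higher and 2 lower in PanIN against Healthy, with none in Tumor against PanIN. In Tumor against Healthy the median log2 fold changes of these lists were -0.27 for isoenzymes and sugar handling, -0.13 for the pentose genes, -0.14 for the HIF machinery and 0.11 for the other targets, beside -0.11 for all genes. Among the other targets Ak4, an adenylate kinase, had -1.68 ± 0.52 in Tumor against Healthy and -1.10 without Healthy 3, and Jmjd6 was at 23.2, 24.4 and 15.9 CPM in Healthy and 35, 39.7 and 35.4 CPM in PanIN (0.80 ± 0.25, adjusted p = 0.457).

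HIF binds a short core with the letters ACGTG or GCGTG, searched here on both strands in the 300 bases from 250 before to 50 after each RefSeq gene start (GRCm38.p6), with overlapping matches counted. A window was found for 32 members (not Ndrg1, Slc2a3 and Bnip3l), and 30 of them (93.8%) held a match in at least 1 window, against 46.7% of all genes with a window. Some genes have more than 1 window, and by window 38 of 46 (82.6%) of the members held a match against 43.8% of all windows. The members were listed in part as HIF targets. Member windows also held a median of 20 CG pairs against 7.0 over all windows, and both cores contain CG. Windows of 3 genes, 1 for each, are shown with matches in capitals, to set beside the values above: Ldha held 7 matches there and its stages overlapped, Aldoc held 3 and stood lower, and Pfkfb3 held 4 in its downstream window and varied by library. A further window of each, not shown, held 2 matches for Ldha, 1 for Aldoc and 1 for Pfkfb3.
Ldha, chr7:46845554-46845853, plus strand: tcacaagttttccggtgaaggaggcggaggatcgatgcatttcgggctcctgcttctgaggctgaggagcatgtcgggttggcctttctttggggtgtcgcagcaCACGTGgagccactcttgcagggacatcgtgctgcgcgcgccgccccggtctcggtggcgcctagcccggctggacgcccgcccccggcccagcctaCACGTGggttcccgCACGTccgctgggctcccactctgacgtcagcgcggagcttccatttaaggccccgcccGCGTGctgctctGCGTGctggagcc
Aldoc, chr11:78322823-78323122, plus strand: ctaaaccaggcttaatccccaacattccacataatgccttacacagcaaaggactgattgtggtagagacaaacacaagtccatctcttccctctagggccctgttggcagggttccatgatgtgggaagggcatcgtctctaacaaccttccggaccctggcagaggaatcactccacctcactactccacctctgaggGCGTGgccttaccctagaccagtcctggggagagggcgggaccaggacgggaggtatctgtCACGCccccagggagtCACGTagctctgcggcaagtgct
Pfkfb3, chr2:11502041-11502340, minus strand: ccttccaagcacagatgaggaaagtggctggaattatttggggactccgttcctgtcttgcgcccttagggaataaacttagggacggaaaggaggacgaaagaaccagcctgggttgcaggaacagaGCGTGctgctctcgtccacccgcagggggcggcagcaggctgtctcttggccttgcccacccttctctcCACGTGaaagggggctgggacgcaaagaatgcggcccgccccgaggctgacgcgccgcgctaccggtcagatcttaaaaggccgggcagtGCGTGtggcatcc
Matches are a description of letters and not of binding.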

How the data were processed

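RNA was measured in 9 libraries in 3 groups by the stage label. For each transcript the authors deposited an estimated count and a TPM value. The submitters' processing notes name Salmon, without a version, and mm10; the file names mention sailfish. Libraries were made with a directional kit, per the labels' protocols. Of 136288 transcripts, 136176 matched GENCODE M21 and were summed to 53458 genes; counts were rounded. edgeR 4.0.16 (R 4.3.3) fitted all 9 libraries with TMM factors, filterByExpr (minimum count 10) and stage alone, with Benjamini-Hochberg over 24133 genes and a threshold of 0.05. Levels are CPM with TMM factors. Shares used exact permutation tests, two-sided. Copies share at least 50% of their words of 31 bases with a member. Alternatives used DESeq2 1.42.0, limma 3.58.1, RLE factors, other filters, TPM on a log2 scale with 1 or 0.1 added, counts recomputed from TPM, a term for the title code and fewer libraries; the main Ndrg1 transcript alone was added after seeing the data. The fit was tested on simulated data. Per-library values and statistics were given for members at an unadjusted p under 0.05 and for 14 listed members, and for up to 4 genes of each further list. Per-library values of Hk3, Aldoa and Pgk1 were given outside that rule. Members and lists were chosen with earlier results of these data known. Labels carry no replicate numbers, so libraries were not paired. Python 3.11.15, pandas 2.3.3 and matplotlib 3.10.9 made tables and figures.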

Additional observations from a re-analysis of the deposited data

How the results depend on the processing

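No paired analysis was possible because the labels carry no replicate numbers, and the shared title code ties only 1 library of each stage. A term for that code was fitted, which set its 3 libraries against all the others. The cause of each difference below was not tested. Genes called in PanIN against Healthy numbered 0 in the reported test, 196 with DESeq2, 123 with no filter on low counts, 3409 with limma-voom and sample weights, 4 and 3 on log2 TPM with 1 and 0.1 added, 1 on counts rebuilt from TPM, 3 without both Healthy 2 and Healthy 3, and 0 to 6 leaving out single libraries. In Tumor against Healthy they numbered 6, and 1607, 1041, 3 (filter of 50 counts in 3 libraries), 1986 (voom), 1 (rebuilt counts) and 2 to 2177 leaving out single libraries, the highest without Healthy 2. In Tumor against PanIN they numbered 3, and 30 (DESeq2), 33 (no filter), 1 (50 counts), 0 (only the 6 libraries compared), 1 (title-code term), 0 (rebuilt counts) and 1 to 7.

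Members called were 0 in each comparison, but voom called 4 in PanIN against Healthy. For Tumor against Healthy there were 3 with DESeq2, 4 with no filter, 5 with voom and 0 to 5 leaving out single libraries. Members at an unadjusted p under 0.05 numbered 5 in PanIN against Healthy (14.3% of members, 10.5% of all genes), and 9 (no filter; 25.7% and 9.31%), 3 (6 libraries; 8.57% and 7.36%), 8 (voom; 22.9% and 31.6%), 3 on each TPM scale (8.57% and 12.3%) and on rebuilt counts (8.57% and 8.03%), 2 without Healthy 2 and 3 (5.71% and 5.48%), and 1 to 8 leaving out single libraries (2.86% to 22.9% of members, 4.13% to 20.4% of all genes). The highest, without Healthy 2, was 22.9% against 20.4%. For Tumor against Healthy they numbered 8 (22.9% and 17.8%), 5 without Healthy 2 and 3 (14.3% and 10.1%), and 5 to 9 leaving out single libraries (14.3% to 25.7% of members, 10.5% to 27.4% of all genes). The highest, without Healthy 2, was 25.7% against 27.4%. In Tumor against PanIN they numbered 2 (5.71% and 4.54%), and 4 (no filter; 11.4% and 4.55%), 4 (6 libraries; 11.4% and 10.5%), 9 (voom; 25.7% and 17.7%), 4 (TPM with 1 added; 11.4% and 8.27%), 4 (without Healthy 2 and 3; 11.4% and 9.62%), 1 (with copies; 2.86% and 4.54%) and 0 to 3 leaving out single libraries (0.0% to 8.57% of members, 2.14% to 9.04% of all genes).

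The members' median log2 fold change in PanIN against Healthy was -0.10, and 0.22 on both TPM scales. In Tumor against Healthy it was -0.12, 0.16 within the shared title code, and -0.20 to 0.18 leaving out single libraries. In Tumor against PanIN it was 0.06, -0.34 and -0.40 on the TPM scales, -0.10 on rebuilt counts, and -0.19 to 0.08. On TPM with 1 added the median of all genes over the 3 comparisons was 0.11, -0.05 and -0.16, beside 0.22, -0.12 and -0.34 for members; with 0.1 added it was 0.23, -0.10 and -0.34, beside 0.22, -0.14 and -0.40. Ndrg1 in Tumor against PanIN changed sign, at -0.37 and -0.38 on the TPM scales and -0.08 on rebuilt counts. Of 105 member values over the 3 comparisons, 62 changed sign under at least 1 of 22 alternatives, but of the 15 at an unadjusted p under 0.05 only that 1 did.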

Other observations

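Values of 3 transcripts of Pfkfb3, chosen after they were seen, are given here. One coding transcript was at 36.3, 7.64 and 18.2 TPM in Healthy, 24.6, 32.5 and 30.9 TPM in PanIN, and 0.0, 0.0 and 13.0 TPM in Tumor. Pfkfb3-221, annotated as a target of nonsense-mediated decay, was at 0.182, 0.0 and 0.0 TPM in Healthy, 22.1, 0.453 and 0.401 TPM in PanIN, and 43.0, 26.0 and 27.1 TPM in Tumor. All 3 Tumor libraries exceeded the others for Pfkfb3-221, and PanIN 1 stood apart from the other PanIN libraries. Pfkfb3-220 was at 17.0, 2.39 and 3.68 TPM in Healthy, 30.7, 13.8 and 13.3 TPM in PanIN and 33.8, 19.0 and 35.7 TPM in Tumor. These transcripts share most of their sequence, so the division of reads between them is the quantifier's estimate. No test was run on them.

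Eno1b, a near copy of the enolase gene Eno1, was at 19.8, 12 and 44.6 CPM in Healthy, 11.7, 6.25 and 8.36 CPM in PanIN and 5.27, 8.24 and 10 CPM in Tumor, below the lowest Healthy library in every later one. Summed with its copies, Eno1 had log2 fold changes of -0.07 ± 0.24 in PanIN and 0.09 ± 0.24 in Tumor against Healthy. The pseudogene Pgk1-rs7 ranged over 4.85 to 93.6 CPM within Healthy alone and was listed at 0.0 CPM in Tumor 1 and Tumor 3.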
